A study of Mus musculus with 12 samples.

Results

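The quantity described here is the change of the effect of WM-1119 between 3 and 6 days of treatment, gene by gene, in a mouse B cell lymphoma line. It was formed as the log2 effect of WM-1119 against DMSO at 6 days minus the same effect at 3 days, in 1 fit of all 12 libraries of the series. Every library of the study (12 of 12) entered, with the genes that had a numeric identifier and passed a filter on low counts. Of 11997 genes tested, 83 (0.692%) passed the test of that difference, here called (adjusted p below 0.05, edgeR quasi-likelihood test with Benjamini-Hochberg adjustment). The line, EMRK1184luc, came from a lymphoma of a female mouse with the Eµ-Myc transgene, in which an immunoglobulin heavy chain enhancer drives Myc in B lineage cells, and it carries a lentiviral luciferase reporter. All 4 groups were cultures of this 1 line, with 3 biological replicates each: DMSO for 3 days, 5 µM WM-1119 for 3 days, DMSO for 6 days and 5 µM WM-1119 for 6 days. No culture, day or batch is named for the replicates, so the p-values reflect only how far these samples varied, which may be partly technical variation.

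WM-1119 occupies the acetyl-coenzyme A site of KAT6A and KAT6B, lysine acetyltransferases of the MYST family that acetylate histone H3 as part of complexes with BRPF scaffold proteins. KAT6 enzymes keep selected developmental genes active in blood cells, and loss of KAT6A slows lymphoma in Eµ-Myc mice. Several of the genes below belong to lipid synthesis. In that pathway the transcription factors SREBP1 and SREBP2 are held in the endoplasmic reticulum by SCAP and INSIG proteins while sterol is plentiful, and are released to switch on enzymes of cholesterol and unsaturated fatty acid synthesis when sterol falls.

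After 3 days the DMSO libraries held 17863138 to 21638773 counts and the WM-1119 libraries 18266488 to 28136250. After 6 days the DMSO libraries held 22749501 to 41607926 and the WM-1119 libraries 14691369 to 17509662, so depth and treatment moved together at the later time. Levels are given as CPM, the count of a gene relative to the library total scaled by its TMM factor. In the 12 libraries 10 B cell markers summed to 3169 to 3518 CPM, while Ms4a1, which encodes CD20, was at 0 in all but 1 library. Of 10 T cell markers, Cd3e, Cd3d, Cd4 and Cd8a were at 0 in every library, and Cd3g, Trac and Cd247 reached at most 0.483 CPM. Cd2 had 51.4 to 89.3 CPM, Zap70 3.34 to 5.72 CPM and Lck 0.887 to 2.27 CPM. The T cell list summed to 57.8 to 64.1 CPM with DMSO and 80.0 to 94.5 CPM with WM-1119. Macrophage and granulocyte markers summed to 139 to 180 CPM. Fibroblast collagen was present in some: Col1a1 exceeded 1 CPM in 5 libraries, at 1.89 in WM-1119 replicate 2 of 3 days, at 6.10 and 2.08 in DMSO replicates 1 and 2 of 6 days, and at 6.83 and 12.95 in WM-1119 replicates 1 and 2 of 6 days. Without these 5 libraries, which leaves 1 library against 1 at 6 days, 4 genes were called, of which Scd1, Scd2 and Trib2 were among the 83. The estimates of all 83 genes kept their sign in that fit. It uses part of the libraries that selected them, so this is no independent check.

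The question of the comparison is whether 6 days of inhibitor do more than, less than or something other than 3 days. Across all genes the 2 effects, which come from different libraries, ran together (Pearson r 0.787 and Spearman rho 0.712 across genes, which are not independent replicates). WM-1119 against DMSO was called for 2937 genes (24.5%) at 3 days, with 11.9% of genes higher and 12.6% lower, and for 3682 (30.7%) at 6 days, with 15.7% higher and 15.0% lower. The 2238 genes called at both times made up 76.2% of the first and 60.8% of the second, and 2236 of them had the same direction. A further 2143 genes were called at exactly one of the times, and the difference between times was called for 23 of those (1.07%, against 0.692% of all genes tested).

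The effect was higher at 6 days for 47 genes (0.392%) and lower for 36 (0.3%). The median size of the log2 difference was 0.45 among the former and 0.49 among the latter, and it exceeded 1 for 8 and 9 genes. Unadjusted, 986 genes had p below 0.05. Read by the estimates at each time, 4 patterns made up the 83 genes. WM-1119 lowered 34 genes further at 6 days than at 3 days, and raised 24 further. For 11 genes an effect below 0 at 3 days was nearer 0 at 6 days. For 14 genes the estimates had opposite signs, though both effects were called for only 2 of these, Cd300ld and Snora61.

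**Figure D1:**
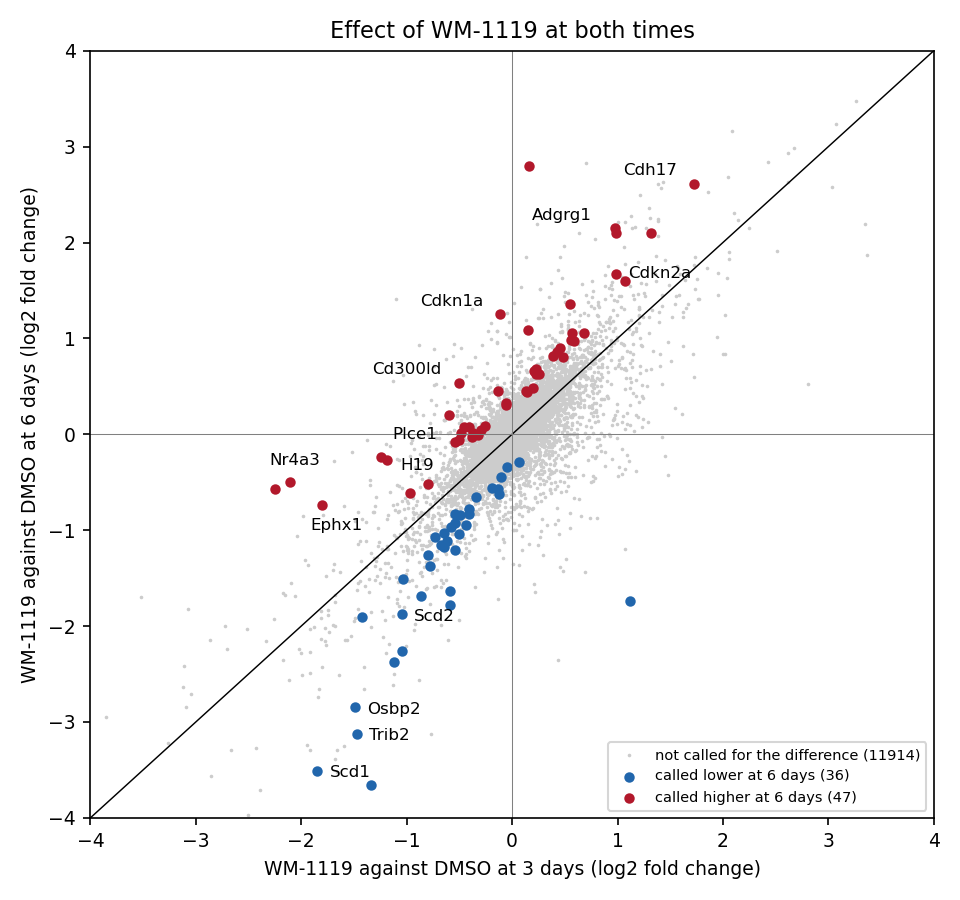
Log2 fold change of WM-1119 against DMSO at 3 days (x axis) and at 6 days (y axis) for each gene tested, with the line of equal effects. The 47 genes called higher at 6 days lie above the line and the 36 called lower lie below it, and 9 genes with an effect beyond 4 in size, none of them called for the difference, fall outside the axes.

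The same difference can be read as the change from 3 to 6 days with WM-1119 minus the change with DMSO. With DMSO 101 genes (0.842%) were called between 3 and 6 days and with WM-1119 641 (5.34%). Among the 83 genes the change was called with WM-1119 only for 51, with DMSO only for 20, with both for 5 and with neither for 7. In the 6-day groups libraries with the same replicate number deviated together, and with that number as a block at 6 days 222 genes were called with DMSO and 1106 with WM-1119. The same 4 counts were then 50, 21, 10 and 2. The levels moved in opposite directions in the 2 treatments for 72 of the 83. The larger change was that of WM-1119 for 38 of the 47 genes called higher, and that of DMSO for 20 of the 36 called lower. Of those 20, most were lipid synthesis genes.

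**Figure D2:**
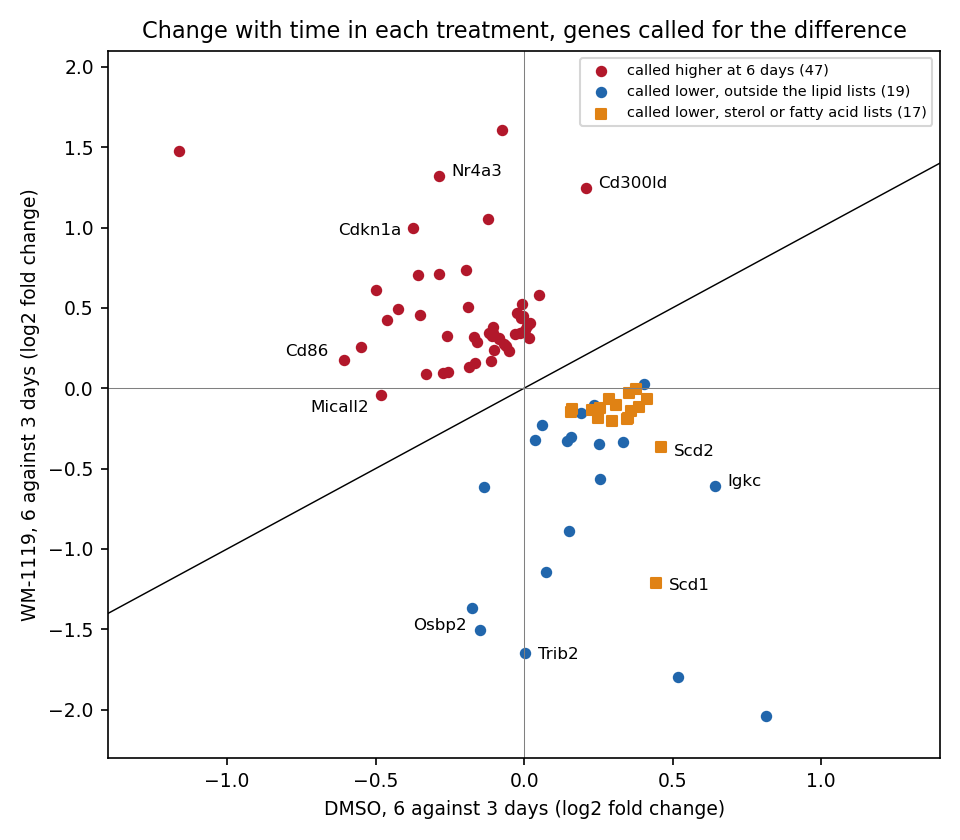
Change from 3 to 6 days in log2 with DMSO (x axis) and with WM-1119 (y axis) for the 83 genes called for the difference. Lipid synthesis genes (17, squares) lie mostly to the right of 0 and near 0 on the y axis, while genes such as Trib2 and Osbp2 lie near 0 on the x axis and far below 0 on the y axis.

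The lipid synthesis lists held 17 of the 36 genes called lower. For comparison, 0.3% of all genes tested were called lower and 0.392% higher. Of 20 tested sterol synthesis genes 9 were called lower at 6 days and 0 higher, with a median log2 difference of -0.36 against 0.003 over all genes tested. Of those, 8 are described here, from acetyl units to late sterols: Acat2, Hmgcs1, Mvd, Fdps, Lss, Cyp51, Msmo1 and Sc5d. Of 14 sterol control and uptake genes Insig1 and Srebf1 were called lower, and of 24 fatty acid and glycerolipid synthesis genes 6 were (Scd1, Scd2, Fads1, Fads2, Elovl6 and Acsl3), again with 0 higher. The medians of these 2 lists were -0.11 and -0.09. Mvd, Fdps, Msmo1, Sc5d, Acat2, Fads1, Elovl6 and Acsl3 are named because they belong to these counts, after their values were seen, as are genes below that were not called.

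Upstream sequence is shown for 4 of these genes, each with a called rise in the DMSO cultures, as examples. Lss, Mvd, Msmo1, Sc5d and Acsl3 also had such a rise and a window, so the rise alone did not set the choice. The windows are the 250 bases before the annotated transcript start, from RefSeq on GRCm38.p6, written on the strand of the gene. A stretch just after the start was found in a GENCODE transcript of the gene for Insig1, Cyp51 and Fads2. For Hmgcs1 it was found on neither strand, so that check did not bear out its start. Capitals mark the letters TCACNCCAC, a sterol regulatory element as bound by SREBP, and CCAAT, the box bound by NF-Y, each searched on both strands, so that CCAAT on the other strand reads ATTGG. Hmgcs1 (chr13:119690101-119690350, + strand) holds both, Insig1 (chr5:28071162-28071411, + strand) and Cyp51 (chr5:4104698-4104947, - strand) hold a CCAAT box, and Fads2 (chr19:10101504-10101753, - strand) holds neither.
Hmgcs1: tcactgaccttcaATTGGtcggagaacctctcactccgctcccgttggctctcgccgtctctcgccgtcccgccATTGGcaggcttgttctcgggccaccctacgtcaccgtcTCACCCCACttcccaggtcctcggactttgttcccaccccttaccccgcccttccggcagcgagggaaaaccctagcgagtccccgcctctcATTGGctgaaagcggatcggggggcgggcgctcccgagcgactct
Insig1: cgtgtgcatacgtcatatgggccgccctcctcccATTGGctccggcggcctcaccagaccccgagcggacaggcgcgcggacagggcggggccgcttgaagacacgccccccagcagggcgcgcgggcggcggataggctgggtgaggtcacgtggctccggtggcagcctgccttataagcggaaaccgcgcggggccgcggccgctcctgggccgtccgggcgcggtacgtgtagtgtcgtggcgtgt
Cyp51: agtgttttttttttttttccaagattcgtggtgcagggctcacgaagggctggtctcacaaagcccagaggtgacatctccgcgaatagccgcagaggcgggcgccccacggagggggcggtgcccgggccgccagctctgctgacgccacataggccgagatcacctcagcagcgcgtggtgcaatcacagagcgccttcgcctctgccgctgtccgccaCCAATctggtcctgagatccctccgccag
Fads2: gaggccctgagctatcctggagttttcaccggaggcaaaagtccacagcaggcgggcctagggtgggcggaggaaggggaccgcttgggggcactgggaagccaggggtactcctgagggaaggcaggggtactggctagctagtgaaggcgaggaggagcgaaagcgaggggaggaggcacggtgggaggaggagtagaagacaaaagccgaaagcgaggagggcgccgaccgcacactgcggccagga

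The table of upstream sequences held 12 of the 17 lipid genes called lower, in 14 windows. CCAAT occurred in 10 of the 14 windows (71.4%), against 36.1% of the windows of all genes tested and 33.8% of all 32851 windows. Over all 18 windows of the tested sterol synthesis genes, called or not, it occurred in 77.8%. TCACNCCAC occurred in 1 of the 14 windows, that of Hmgcs1, where its first base lies at -137 from the transcript start, against 0.999% of the windows of genes tested. The E-box CACGTG occurred in 2 of the 14 (14.3%) against 8.62%. These are matches of letters, with no measurement of binding, and base composition was not matched between the sets. Only this 1 fixed form of the sterol element was searched, so a window without it may hold an element with other letters.

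Hmgcs1 encodes the synthase of hydroxymethylglutaryl-CoA at the entry of the pathway. Its levels with DMSO were 143, 145 and 124 CPM at 3 days and 182, 173 and 179.8 CPM at 6 days, and with WM-1119 91.8, 94.0 and 89.2 CPM and 93.8, 90.2 and 90.5 CPM. All 3 DMSO libraries of 6 days lay above those of 3 days, while the WM-1119 libraries of both times overlapped. The DMSO level rose by 0.38 on the log2 scale (adjusted p = 8.36e-04) and the WM-1119 level changed by 0.00 ± 0.06 (SE, not called), which gave a difference between effects of -0.38 ± 0.08 (SE, adjusted p = 0.0197). The fall against DMSO was thus 1.5-fold at 3 days and 1.95-fold at 6 days.

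Cyp51, the sterol 14-demethylase, followed the same course. It had 152, 166 and 142 CPM with DMSO at 3 days, 196, 190.4 and 201 at 6 days, and 97.2, 99.4 and 97.1 and 97.8, 97.0 and 93.0 with WM-1119. The 2 WM-1119 groups overlapped again, and the difference between effects was -0.38 ± 0.07 (adjusted p = 0.0134). Lss, lanosterol synthase, stood at 44.4 ± 2.48 and 56.8 ± 3.08 CPM with DMSO (mean ± SD, n = 3) and at 28.4 ± 1.504 and 25.1 ± 1.92 CPM with WM-1119. Its difference was -0.53 ± 0.10 (adjusted p = 0.00940), with the WM-1119 change of -0.19 not called.

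Mvd, the decarboxylase of the mevalonate steps, had 26.2 ± 2.75 CPM at 3 days and 33.4 ± 2.25 CPM at 6 days with DMSO (mean ± SD, n = 3), and 18.5 ± 0.676 and 16.2 ± 0.638 CPM with WM-1119. The difference between effects was -0.54 for Mvd, -0.50 for Fdps, -0.48 for Msmo1, -0.41 for Sc5d and -0.44 for Acat2 (adjusted p 0.0213 to 0.0337). In 7 of these 8 sterol genes the DMSO level rose between 3 and 6 days, by 0.31 (Sc5d) to 0.41 (Msmo1). The DMSO change of Acat2, which encodes a cytosolic acetoacetyl-CoA thiolase, was 0.25 and was not called (adjusted p = 0.0766, and 0.0397 with the 6-day block). For none of the 8 was the WM-1119 change called, and its estimates ran from -0.19 to 0.00. The remaining members included Nsdhl just outside the threshold (-0.46, adjusted p = 0.0643), Idi1 (-0.37, adjusted p = 0.239) and Ebp, the only member with an estimate above 0 (0.08). Tm7sf2, a sterol reductase gene, had DMSO and WM-1119 changes of -0.55 and -0.82, the latter called, and no called difference.

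Insig1 encodes a protein that holds SCAP and SREBP in the endoplasmic reticulum and is itself a target of SREBP. With DMSO it had 115, 116 and 98.5 CPM at 3 days and 147, 144 and 141 CPM at 6 days, and with WM-1119 78.8, 84.6 and 79.6 and 77.4, 74.5 and 72.3 CPM. No 2 of the 4 groups overlapped, and the DMSO rise (0.39) was called while the WM-1119 change (-0.12) was not. The difference was -0.51 ± 0.08 (adjusted p = 0.00344). Srebf1, the gene of SREBP1, had a difference of -0.31 ± 0.07 (adjusted p = 0.0473) that was lost when any of 10 libraries was left out, and Srebf2 had -0.21, not called. Scap, the sterol sensor, had 0.01.

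Scd1 and Scd2 encode stearoyl-CoA desaturases, which make monounsaturated fatty acids, and both genes lie in the same region of chromosome 19. For Scd1 (chromosome 19, 44394450 to 44407709) the DMSO libraries had 129, 136 and 142 CPM at 3 days and 186, 187 and 181 CPM at 6 days. The WM-1119 libraries had 40.5, 34.7 and 38.1 CPM and 15.8, 14.9 and 18.2 CPM. No 2 groups overlapped, and the treatments moved apart from both sides: the DMSO level rose 1.36-fold and the WM-1119 level fell 2.32-fold. The effect went from a 3.60-fold to an 11.4-fold fall, a log2 difference of -1.66 ± 0.09 (adjusted p = 1.81e-09), the smallest p of all genes tested.

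Scd2 (chromosome 19, 44293676 to 44306864) had 638, 632 and 558 CPM and 841, 831 and 845 CPM with DMSO, and 282, 307 and 294 CPM and 228, 233 and 224 CPM with WM-1119. Both changes with time were called, 0.46 with DMSO and -0.37 with WM-1119, and the difference was -0.83 ± 0.07 (adjusted p = 6.18e-07). Fads2, a desaturase of polyunsaturated fatty acids, differed from DMSO by -0.12 ± 0.06 at 3 days, which was not called, and by -0.62 ± 0.06 at 6 days, with a difference of -0.50 ± 0.09 (adjusted p = 0.00536). Elovl6, an elongase, likewise had -0.05 (not called) and -0.34, with a difference of -0.29. Fads1 and the acyl-CoA synthetase gene Acsl3 had differences of -0.36 and -0.38. Acly, Acaca and Fasn, of the same list, were not called and had differences of -0.07, -0.13 and -0.08. Gpam, which starts glycerolipid synthesis, was lower with WM-1119 at both times (-0.94 and -0.81) with a difference of 0.13 that was not called.

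**Figure D3:**
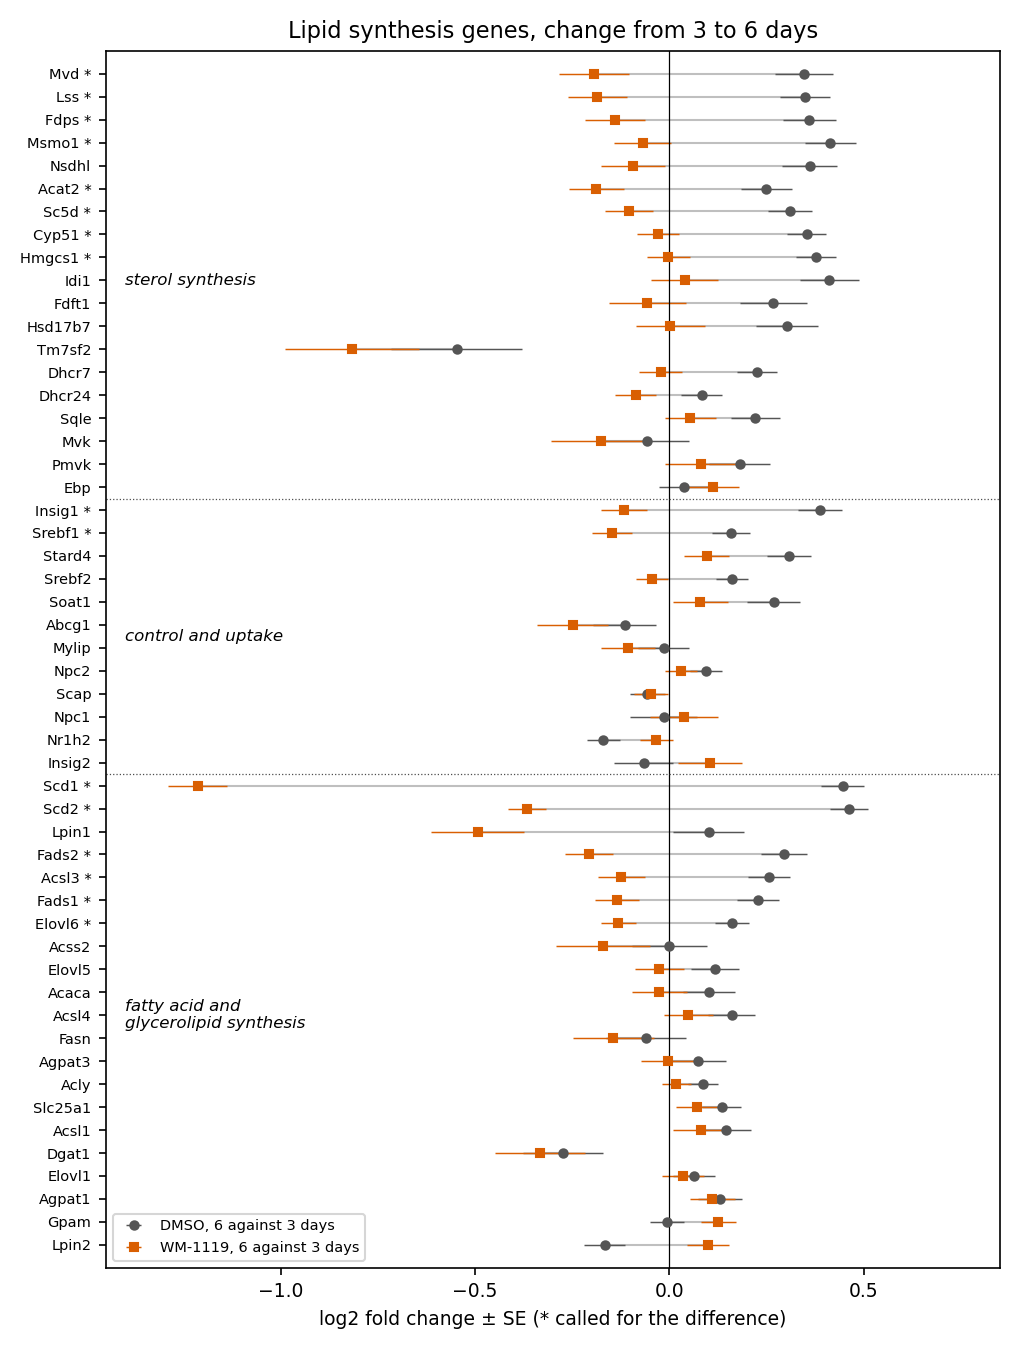
Log2 change from 3 to 6 days with DMSO (circles) and with WM-1119 (squares), with SE, for 52 of the 54 tested members of the 3 lipid lists that averaged at least 5 CPM, ordered within a list by the difference; asterisks mark the 16 of them called for it. In the sterol synthesis list most DMSO changes lie above 0 and most WM-1119 changes near or just below 0, and Scd1 has the widest gap.

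The lipid counts depended on single libraries. With each library left out in turn 1 to 9 of the sterol synthesis genes and 3 to 7 of the fatty acid genes were called. The sterol count fell below 6 without DMSO replicate 3 of 3 days (3), WM-1119 replicate 2 (3) or 3 (4) of 3 days, DMSO replicate 1 (3) or 2 (5) of 6 days, or WM-1119 replicate 2 (3) or 3 (1) of 6 days. The Hmgcs1 call was lost without any of 4 libraries and that of Cyp51 without 1, while Scd1, Scd2, Insig1, Fads2 and Lss kept theirs each time. Without the 5 libraries with over 1 CPM of Col1a1, 0 sterol and 2 fatty acid genes were called, and the part of fibroblast transcripts was otherwise not tested.

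Trib2, Osbp2, Ppp1r9a, Brwd1 and Pitpnc1 are genes outside lipid synthesis with falls that deepened by more than 1 on the log2 scale, and for each the change with time was called with WM-1119 and not with DMSO. Trib2 (chromosome 12, 15791725 to 15816962) encodes a pseudokinase that brings substrates to a ubiquitin ligase and can drive leukaemia. It had 76.8, 72.6 and 74.5 CPM and 80.0, 73.1 and 70.9 CPM with DMSO at 3 and 6 days, and 27.7, 27.8 and 24.9 CPM and 10.3, 7.63 and 7.76 CPM with WM-1119. The 2 DMSO groups overlapped, and each WM-1119 library of 6 days lay below each of 3 days. The fall went from 2.78-fold to 8.72-fold, a difference of -1.65 ± 0.12 (adjusted p = 7.47e-08), and the DMSO change was 0.00 ± 0.07. Of the other Tribbles genes, Trib1 had a difference of 0.10 and the scarcely detected Trib3 0.00, neither called.

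Osbp2, of the oxysterol-binding protein family, had 14.9, 16.8 and 15.8 CPM and 13.2, 14.1 and 15.8 CPM with DMSO, and 4.76, 5.97 and 5.98 CPM and 2.52, 1.58 and 1.84 CPM with WM-1119. Its difference was -1.36 ± 0.21 (adjusted p = 0.00344), again with the DMSO groups overlapping. Pitpnc1, a phosphatidylinositol transfer protein gene, went from 10.7 ± 1.01 to 5.90 ± 0.849 CPM with WM-1119 (mean ± SD, n = 3), and Ppp1r9a, which encodes the actin-binding scaffold neurabin, from 5.02 ± 0.263 to 2.28 ± 0.373 CPM. Their differences were -1.04 ± 0.17 and -1.22 ± 0.20 (adjusted p = 0.00344 each). Brwd1, a bromodomain gene that acts in B cell maturation, had a difference of -1.19 ± 0.25 (adjusted p = 0.0294). Its DMSO libraries had 5.17 to 6.73 and 4.88 to 5.78 CPM and its WM-1119 libraries 3.87 to 4.67 and 1.13 to 1.86 CPM, and the call was lost without any of 8 libraries.

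Of 39 tested genes of B cell receptor signalling and surface 1, Igkc, was called lower and 2, Blk and Cd86, higher, with a median difference of -0.01. The shares over all genes tested were 0.3% lower and 0.392% higher. Igkc, the immunoglobulin kappa constant region, differed more between treatments at 6 days: it had 7.66, 10.0 and 9.37 CPM and 14.1, 15.2 and 13.0 CPM with DMSO, 4.33, 3.53 and 4.83 CPM and 2.70, 2.66 and 2.79 CPM with WM-1119. The groups did not overlap, and the fall went from 2.17-fold to 5.18-fold (difference -1.25 ± 0.21, adjusted p = 0.00536). The DMSO rise of 0.64 was called and the WM-1119 change of -0.61 was not (adjusted p = 0.0612, and 0.0424 with the 6-day block). Bach2, a repressor that keeps B cells from becoming plasma cells, had 266 to 279 and 319 to 328 CPM with DMSO and 159 to 171 and 147 to 162 CPM with WM-1119, where the WM-1119 groups overlapped. Its difference was -0.34 ± 0.06 (adjusted p = 0.0120), lost without any of 3 libraries.

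Slamf7, a SLAM family receptor of lymphocytes and plasma cells, went from 71.6 ± 1.84 to 57.8 ± 2.59 CPM with WM-1119 against 124 ± 5.21 and 139 ± 3.06 CPM with DMSO (difference -0.46 ± 0.07, adjusted p = 0.00207). Cmah, the hydroxylase that makes the glycolyl form of sialic acid, went from 45.4, 46.6 and 44.3 CPM to 37.4, 33.0 and 37.0 CPM with WM-1119, while the DMSO level rose from 77.7, 76.7 and 79.4 CPM to 97.1, 92.6 and 88.7 CPM. Its difference was -0.60 ± 0.08 (adjusted p = 6.58e-04). Hdac7, a class IIa histone deacetylase of early B cells, had no call at 3 days (0.06 ± 0.05) and was lower at 6 days (-0.29 ± 0.05). The difference of -0.36 ± 0.07 (adjusted p = 0.0229) was lost without any of 7 libraries. The transcription factor gene Ets1, named after its values were seen, had effects of -0.54 and -0.83, both called, and a difference of -0.29.

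**Figure D4:**
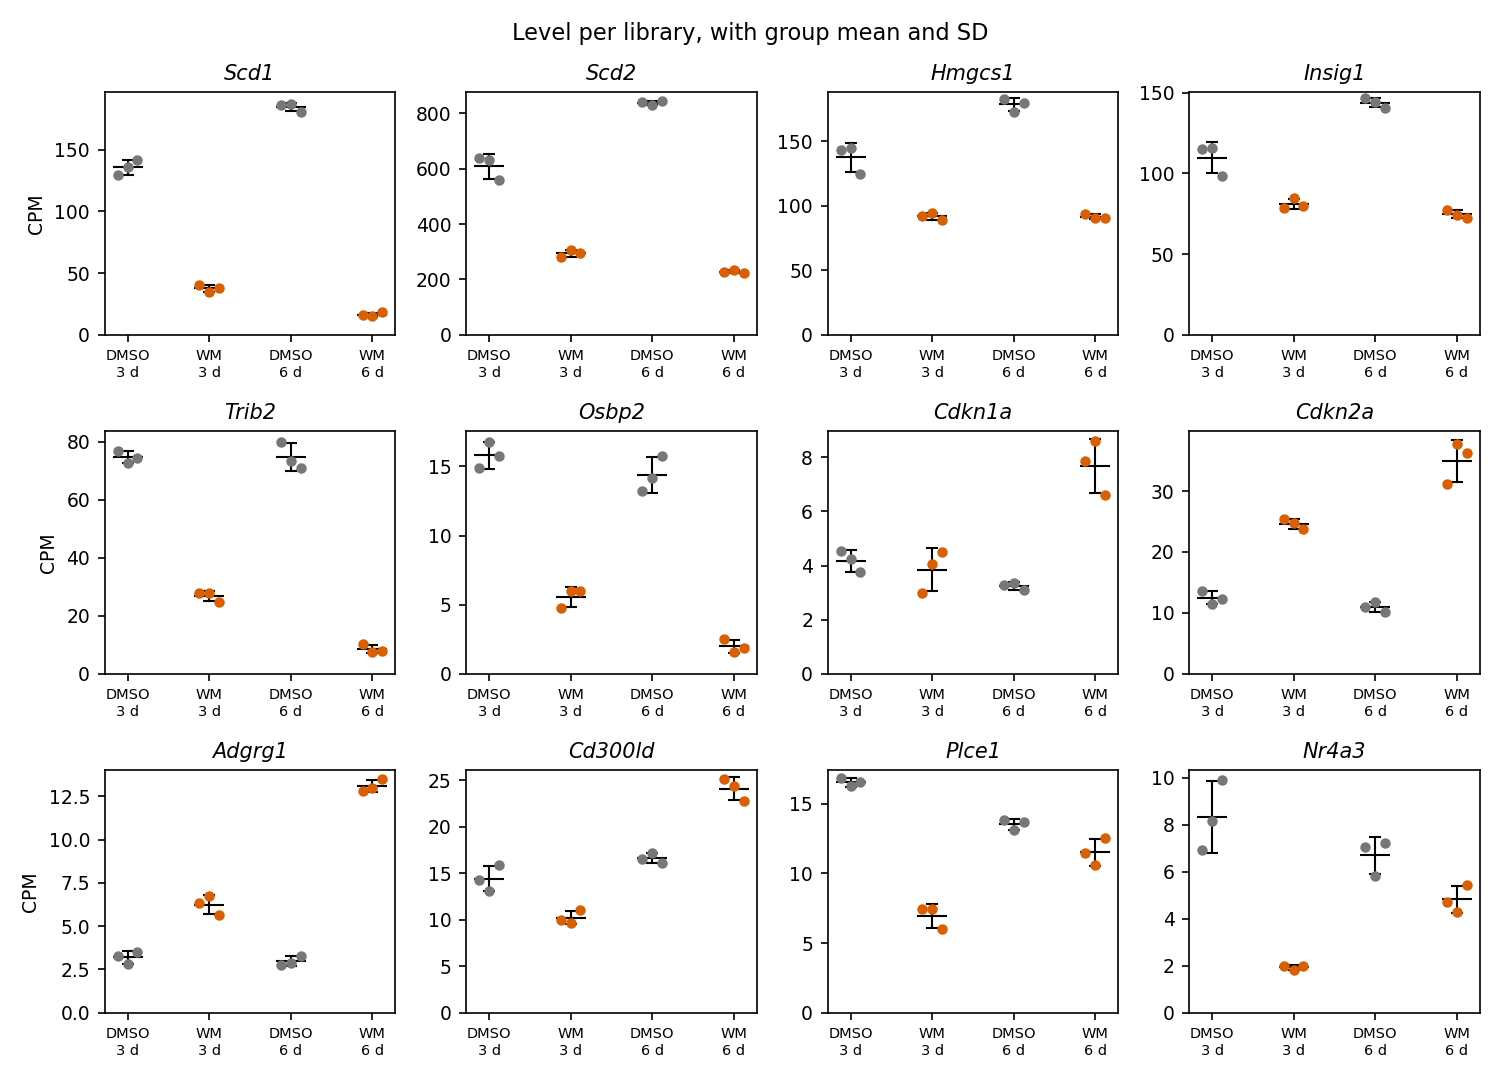
CPM in each of the 12 libraries for 12 of the genes called for the difference, with the mean and SD of each group; grey points are DMSO and orange points WM-1119 (WM), at 3 and 6 days (d). Scd1, Scd2, Hmgcs1 and Insig1 rise with time in DMSO, Trib2 and Osbp2 fall with time in WM-1119, and Cd300ld with WM-1119 lies below DMSO at 3 days and above it at 6 days.

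Among the rises that appeared or grew, cyclin-dependent kinase inhibitors stood at 2 of 8 tested genes called higher and 0 lower (median of the 8, 0.08). The shares over all genes tested were 0.392% higher and 0.3% lower. Cdkn1a (chromosome 17, 29090979 to 29100722) encodes p21, a brake on the cell cycle and a target of p53. It had 4.55, 4.25 and 3.75 CPM with DMSO and 2.97, 4.05 and 4.51 CPM with WM-1119 at 3 days, which overlapped. At 6 days it had 3.27, 3.37 and 3.09 CPM and 7.85, 8.60 and 6.60 CPM, which did not. The effect was -0.12 ± 0.16 at 3 days, not called, and 1.25 ± 0.15 at 6 days, with a difference of 1.37 ± 0.22 (adjusted p = 0.00344).

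Cdkn2a, which encodes the tumour suppressors p16 and p19 ARF, was higher with WM-1119 at both times. It had 13.7, 11.5 and 12.3 CPM and 10.98, 11.7 and 10.2 CPM with DMSO and 25.5, 24.7 and 23.8 CPM and 31.1, 37.7 and 36.2 CPM with WM-1119. Its rise went from 1.97-fold to 3.19-fold (difference 0.69 ± 0.13, adjusted p = 0.00858), with a call that was lost without 1 library. The table does not tell the transcripts of p16 and ARF apart. Of the other inhibitors none was called; Cdkn1b had a difference of -0.23, Cdkn2c 0.20 and Cdkn1c, at low counts, -0.73.

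Of 24 regulators and targets of p53 1 was called, against 0.692% of all genes tested: Ccng1, which encodes cyclin G1. At 3 days it had 115 to 117 CPM in DMSO libraries and 108 to 116 CPM in WM-1119 libraries, and at 6 days 106 to 127 and 143 to 149.9 CPM, a difference of 0.38 ± 0.08 (adjusted p = 0.0247) that was lost without any of 10 libraries. Cdkn1a, also a p53 target, is counted with the inhibitors above. No other member of the p53 list was called: the differences of Mdm2, Bax, Btg2 and Sesn1 were 0.08, 0.05, 0.03 and -0.03, and Bbc3, the gene of PUMA, had 0.34 (adjusted p = 0.245). The list median was 0.04. E2F targets with 47 tested genes and G2 and mitosis genes with 50 had 0 calls of the difference in either direction, which at these list sizes is near the share over all genes.

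Adhesion molecules and integrins gave 2 of 26 tested genes called higher and 0 lower, against 0.392% and 0.3% of all genes tested. Adgrg1, an adhesion G protein-coupled receptor, had 3.30, 2.80 and 3.52 CPM and 2.73, 2.88 and 3.29 CPM with DMSO, which overlapped, and 6.33, 6.74 and 5.67 CPM and 12.8, 12.9 and 13.5 CPM with WM-1119, which did not. The rise went from 1.97-fold to 4.45-fold (difference 1.17 ± 0.19, adjusted p = 0.00344). Cdh17, a cadherin, had 5.25, 6.23 and 5.56 CPM and 3.78, 3.68 and 5.04 CPM with DMSO and 20.2, 18.1 and 18.4 CPM and 25.9, 23.7 and 26.4 CPM with WM-1119. Its rise went from 3.31-fold to 6.13-fold (difference 0.89 ± 0.16, adjusted p = 0.00899), and the call was lost without either of 2 libraries. Apbb1, an adaptor that binds the amyloid precursor protein, had 7.21 ± 0.169 CPM and then 11.01 ± 0.545 CPM with WM-1119. With DMSO it had 3.64 ± 0.478 and then 2.63 ± 0.285 CPM. The WM-1119 change of 0.61 was called and the DMSO change of -0.50 was not. The difference between effects was 1.11 ± 0.19 (adjusted p = 0.00502).

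Some of the other growing rises belonged to none of the lists. Cpt1a, whose product admits long-chain fatty acids to mitochondria for oxidation, had 86.3, 84.5 and 99.3 CPM and 83.3, 84.9 and 83.2 CPM with DMSO, and 119, 127 and 124 CPM and 159, 155 and 156 CPM with WM-1119. The WM-1119 groups did not overlap, and the difference was 0.44 ± 0.08 (adjusted p = 0.00536). Cyp4f18, a cytochrome P450 that hydroxylates leukotriene B4, had 98.8 to 105 and 105 to 109 CPM with WM-1119, where each library of 3 days lay just below each of 6 days but the change was not called (0.09), while its DMSO level fell from 64.1 to 71.2 to 53.9 to 55.0 CPM. The difference was 0.42 ± 0.07 (adjusted p = 0.00502). Cat, the catalase gene, named after its values were seen, went from 631 ± 13.5 to 796 ± 12.3 CPM with WM-1119 and had a difference of 0.37.

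Cd86, St3gal1 and Gbp2 are grouped here after their values were seen. They are among the 9 of 47 genes called higher whose DMSO change was the larger in size. Cyp4f18, Cdh17, Vim, Eng and Blk were others. Cd86, a ligand that costimulates T cells, had 3.90, 3.91 and 4.54 CPM and 2.71, 2.70 and 2.64 CPM with DMSO and 9.30, 10.2 and 11.2 CPM and 11.9, 11.2 and 11.7 CPM with WM-1119. The DMSO fall of 0.61 was called and the WM-1119 change of 0.18 was not (difference 0.78 ± 0.17, adjusted p = 0.0351). St3gal1, a sialyltransferase, had the same form, with a called DMSO fall of 0.27 and a difference of 0.37 ± 0.08 (adjusted p = 0.0294). Gbp2, an interferon-inducible guanylate-binding protein gene, had effects of 0.55 and 1.36 and a difference of 0.81 ± 0.17 (adjusted p = 0.0332). Neither change of Gbp2 with time was called, -0.55 with DMSO (adjusted p = 0.0587, and 0.0430 with the 6-day block) and 0.26 with WM-1119 (adjusted p = 0.189). It was the only call among 7 tested guanylate-binding protein genes, with Gbp3 (0.55, adjusted p = 0.0615) and Gbp7 (0.95, adjusted p = 0.0683) just outside. Among all genes tested 0.692% were called. The Cd86 call was lost without any of 10 libraries, and those of St3gal1 and Gbp2 without any of 9 each.

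Vim, the intermediate filament gene vimentin, is on the fibroblast list. It was the only call among the 14 tested members, against 0.692% of all genes tested. It had 233, 243 and 244 CPM and 212, 214 and 217 CPM with DMSO, and 343, 340.1 and 324 CPM and 366, 371 and 386 CPM with WM-1119, a difference of 0.32 ± 0.06 (adjusted p = 0.00848). Its replicate 3 libraries of 6 days, where Col1a1 was 0.488 and 0.408 CPM, had 217 and 386 CPM of Vim. The 25 members of the list summed to 237 to 266 CPM in the DMSO libraries, 338 to 363 CPM with WM-1119 at 3 days and 402 to 457 CPM at 6 days, most of it Vim. Without Vim the sums were 21.4 to 26.6 and 20.5 to 48.8 CPM with DMSO at 3 and 6 days, and 14.4 to 22.7 and 15.4 to 85.8 CPM with WM-1119. The 14 tested members had a median difference of 0.53, with 2 below 0, and median changes with time of 1.69 with DMSO and 2.43 with WM-1119. The part of fibroblast transcripts in the Vim difference was not tested.

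Among effects that faded or turned, Cd300ld (chromosome 11, 114982443 to 114989886) had the smallest p. It encodes a surface receptor of the CD300 family, best known from myeloid cells. At 3 days it had 14.3, 13.1 and 15.8 CPM with DMSO and 9.95, 9.67 and 11.02 CPM with WM-1119, and at 6 days 16.6, 17.2 and 16.1 CPM and 25.1, 24.4 and 22.7 CPM. Every WM-1119 library lay below every DMSO library at 3 days and above every one at 6 days. The effects were -0.50 ± 0.09 and 0.54 ± 0.08, both called, with a difference of 1.04 ± 0.12 (adjusted p = 1.45e-04). The change lay with WM-1119 (1.25), and the DMSO change of 0.21 was not called.

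Actn1, the actin crosslinker alpha-actinin 1, was lower only in the 3-day comparison. Its libraries had 252, 262 and 246 CPM with DMSO and 176, 179.9 and 188 CPM with WM-1119 at 3 days, against 246, 256 and 246 CPM and 259, 249.5 and 245 CPM at 6 days, which overlapped. The effect at 6 days was 0.01 ± 0.04 and the difference 0.49 ± 0.06 (adjusted p = 2.75e-04). Plce1, phospholipase C epsilon, had 16.9, 16.2 and 16.5 CPM and 7.41, 7.47 and 5.98 CPM at 3 days and 13.8, 13.1 and 13.7 CPM and 11.4, 10.6 and 12.5 CPM at 6 days. Its fall of 2.36-fold became 1.18-fold (difference 1.00 ± 0.14, adjusted p = 8.12e-04).

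H19, an imprinted long noncoding RNA, moved towards the middle in both treatments, from 32.3 ± 3.10 to 24.1 ± 0.822 CPM with DMSO and from 14.1 ± 1.51 to 20.03 ± 1.71 CPM with WM-1119. Both changes were called, and the difference was 0.92 ± 0.13 (adjusted p = 8.19e-04). Nr4a3, an immediate-early nuclear receptor, had 6.92, 8.16 and 9.93 CPM and 2.00, 1.81 and 1.99 CPM at 3 days and 7.08, 5.81 and 7.23 CPM and 4.73, 4.30 and 5.44 CPM at 6 days. Its fall of 4.29-fold became 1.41-fold, both called (difference 1.61 ± 0.24, adjusted p = 0.00175). It was the only call among 22 immediate-early genes, against 0.692% of all genes tested. Gimap3, a GTPase gene of lymphocytes, had effects of -0.60 (called) and 0.21 (not called) and a difference of 0.81 ± 0.11 (adjusted p = 8.19e-04). Ephx1, an epoxide hydrolase gene, had -1.80 and -0.74, both called, and a difference of 1.06 ± 0.19 (adjusted p = 0.00899) that was lost without 1 library.

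Of 29 tested pro-B and pre-B stage genes 2 were called higher, Enpep and Igll1, and 1 lower, Bach2, with a median of 0.03. Shares over all genes tested were 0.392% higher and 0.3% lower. Enpep, the BP-1 aminopeptidase of pre-B cells, had 276, 278 and 267 CPM with DMSO and 215, 220.3 and 220.0 CPM with WM-1119 at 3 days. At 6 days it had 264, 255 and 269 CPM and 256, 267 and 264 CPM, which overlapped (difference 0.32 ± 0.06, adjusted p = 0.00800). Igll1, the surrogate light chain gene lambda 5, had effects of -0.25 (called) and 0.09 (not called), and Blk, a Src family kinase of B cells, had -0.38 (called) and -0.02 (not called). Their differences were 0.34 ± 0.08 (adjusted p = 0.0369) and 0.36 ± 0.08 (adjusted p = 0.0294), lost without any of 10 and 9 libraries. For Blk the DMSO level fell, by 0.26, and the WM-1119 level did not pass the test (0.10).

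The other called genes were named after their values were seen. Growing rises were Jak1 and Jak2, kinases of cytokine receptors (differences 0.30 and 0.39), the TGF-beta co-receptor gene Eng (0.32), Micall2 (0.44), Dglucy (0.44), Gcsam of germinal centre B cells (0.45), the phosphodiesterase gene Pde10a (0.45), the tubulin gene Tubb2a (0.49), Mvb12b (0.28), Sox12 (0.53) and the dynein gene Dnah5 (0.39). S100a6, Fam13a and the riboflavin kinase gene Rfk had no call at 3 days and rises of 1.09, 0.45 and 0.30 at 6 days. Deepening falls were the amino acid transporter gene Slc1a4 (-0.82), Gpr155 (-0.67), Cobll1 (-0.47), Tmem132e (-0.48) and the semaphorin gene Sema5a (-0.38). The Tmem132e call was lost with the 6-day block (adjusted p = 0.0716). Cars, a tRNA synthetase gene, had no call at 3 days and a fall at 6 days (-0.45). Falls of 3 days that were smaller or no longer called at 6 days were those of Uaca (0.38), Gnb4 (0.53), the clock gene Arntl (0.34), the phosphatase gene Ubash3b (0.48), Sh3bgrl2 (0.45), Enpp3 (0.35), Tgfbrap1 (0.28) and the lipid droplet gene Hilpda (0.46).

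Of the 83 genes 6 averaged under 5 CPM. Besides Cdkn1a and Brwd1 these were Gsn, Pla2g2f, Dnaic2 and Snora61. Gsn, the actin-severing protein gelsolin, had 0.433, 0.977 and 0.682 CPM at 3 days and 2.16, 3.05 and 1.43 CPM at 6 days with WM-1119, against 3.23 to 3.86 and 3.05 to 3.51 CPM with DMSO (difference 1.68 ± 0.36). Pla2g2f, a secreted phospholipase A2 gene, had 1.98 to 2.52 CPM with WM-1119 at 6 days and 0.284 to 0.342 CPM with DMSO, and 0.682 to 1.03 and 0.531 to 0.929 CPM at 3 days (difference 2.64 ± 0.44). Dnaic2, a dynein gene of cilia, had 0.524 to 0.840 CPM and 0.0681 to 0.240 CPM with WM-1119 (difference -2.31 ± 0.51).

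Genes singled out earlier for their effect at a single time were not all called for the difference. Hoxb8, a homeobox gene, had 51.9, 51.1 and 51.2 CPM and 50.0, 52.6 and 52.1 CPM with WM-1119 against 164 to 179 and 182 to 189 CPM with DMSO. Its difference was -0.09 ± 0.07, with a 95% interval of -0.23 to 0.05 (adjusted p = 0.813). Neurl3, a ubiquitin ligase gene, had 33.0 ± 2.50 and 38.0 ± 0.935 CPM with WM-1119 and a difference of 0.42 (95% interval 0.13 to 0.70, adjusted p = 0.322). Ptgir, the prostacyclin receptor gene, had 10.2, 7.61 and 7.71 CPM and 13.8, 12.4 and 14.9 CPM and a difference of 1.08 (95% interval 0.48 to 1.68, adjusted p = 0.123), which DESeq2 called (adjusted p = 0.0365). Myc, driven here by the transgene, had a difference of -0.05 (-0.19 to 0.10). The targets of the inhibitor, Kat6a and Kat6b, had 0.10 (-0.05 to 0.24) and -0.10 (-0.31 to 0.10), and neither was called at either time. The gene next outside the threshold was Jade2, a scaffold of another MYST acetyltransferase complex, with 0.33 (adjusted p = 0.0510), beside Srebf1 just inside it (adjusted p = 0.0473).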

How the data were processed

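The series is messenger RNA sequencing of 12 cultures of 1 mouse lymphoma line (poly(A) selection, stranded kit, per the labels' protocols). The deposited table holds whole-number read counts per gene. The submitters' processing notes name featureCounts and mm10. An aligner, a strand setting and a rule for reads that fit several genes are not stated in the sources used here, which bears most on close paralogs or families (Scd1 and Scd2, guanylate-binding proteins, Gimap3, Cd300ld, Igkc). Of 27179 entries, 874 without a numeric identifier were left out (0.305% to 0.362% of a library's counts). RefSeq gave symbols to 25275 of the other 26305.

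Counts were scaled with TMM and filtered with filterByExpr by group. The 4 group means were fitted to all 12 libraries with edgeR 4.0.16 (robust quasi-likelihood, R 4.3.3). P-values are two-sided and adjusted over 11997 genes. Depth was 14691369 to 41607926 counts, the common biological coefficient of variation 5.69%, and intervals are at 95%. Fold changes and SE are model estimates, and SD is over 3 libraries. An exact permutation of 3 libraries against 3 could not pass the threshold. The fit was also run on simulated counts, drawn from its own means and dispersions with differences added to WM-1119 at 6 days. Those libraries were independent, so that run cannot speak to replicate numbers that deviate together or to fibroblast transcripts.

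The members, the 40 gene lists (1045 genes, 1044 in the table, 865 tested) and the tests were chosen with earlier results of these data known, so list counts are descriptions with no test of their own. Of the 865 tested genes in the lists 37 were called, against 0.692% of all genes tested. Of the lipid lists 2 genes are counted but not reported by name here. Named genes were, among called genes of at least 5 CPM, the 10 smallest p and the 5 largest differences in each direction, up to 3 called members of each list, Kat6a, Kat6b, and 6 genes known from a single time. Alternatives tried were scaling by RLE or by upper quartiles, no low-count filter, 1 CPM in 3 libraries, DESeq2 1.42.0, limma voom (3.58.1), the replicate number as a block, thinning to 14691369 counts, and each library left out. The older edgeR dispersion estimate, leaving out libraries over 1 CPM of Col1a1, and a replicate block for the 6-day libraries alone were added after seeing the data. All 3 same-numbered pairs of the 6-day groups had correlated deviations over 0.1 (r 0.144 to 0.243), each the best match of its number, so the numbers pair those samples by the data, with nothing in the labels. Of the 15 other pairs of groups and numbers 1 exceeded 0.1.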

Additional observations from a re-analysis of the deposited data

Results flagged for a closer look

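The effects of WM-1119 at 3 and 6 days differed, by the test of the difference itself, for 83 genes. For 2 of these both effects were called, in opposite directions. Cd300ld was lower with WM-1119 at 3 days and higher at 6 days, a log2 difference of 1.04 (adjusted p = 1.45e-04), with no overlap of treated and control libraries at either time. Snora61, a small nucleolar RNA gene named after its values were seen, was higher at 3 days (0.787 to 1.26 against 0.372 to 0.568 CPM) and lower at 6 days (0.204 to 0.283 against 0.447 to 1.20 CPM), a difference of -2.86 (adjusted p = 0.0270). Its counts were low in every library. The libraries were poly(A)-selected, and whether its reads came from the small RNA itself was not tested. With groups of 3, single libraries were not tested for standing apart.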

How the results depend on the processing

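All 83 genes kept the sign of their difference under each alternative in which they were tested. Each alternative refits the same counts that selected the 83, or part of them, so kept signs are no independent check. The count was 82 with RLE and 79 with upper-quartile scaling, 83 with no filter (75 shared, 39 higher and 44 lower), 82 with 1 CPM in 3 libraries, 98 with DESeq2, 84 with limma voom, 87 with the older dispersion estimate and 60 in libraries thinned to equal depth. With each library left out it ran from 39 (without WM-1119 replicate 3 of 6 days) to 215 (without DMSO replicate 3 of 6 days, all 83 shared), with 22 to 92 higher and 14 to 123 lower. Such fits have fewer samples, and 10 of the 12 moved the count by over 1.5 times. In the same fits the sterol count was 1 to 9 and the fatty acid count 3 to 7, 35 to 150 genes were called with DMSO between times, and 249 to 1099 with WM-1119. DESeq2 called 171 with DMSO between times. Without the 5 libraries over 1 CPM of Col1a1 the counts were 4 for the difference (0 higher, 4 lower), 0 sterol and 2 fatty acid genes, 498 with DMSO and 196 with WM-1119 between times, and 1436 at 6 days, each 6-day group being 1 library assumed to vary like the others.

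The replicate block over all 12 libraries gave 95 calls, 81 of them shared. The replicate block within 6 days, added after seeing the data, gave 107 calls (61 higher, 46 lower), 82 of them shared, with 222 genes called with DMSO and 1106 with WM-1119 between times. Both blocks kept the call for the difference of all 40 genes that were named by the rule and called. The block within 6 days ended that of Tmem132e (adjusted p = 0.0716), a gene named after its values were seen. Of 40 named genes called, 33 kept their call in every planned setting that left out no library and 25 without each library in turn. Thinning ended the calls of Cdkn2a, St3gal1, Brwd1, Blk, Gbp2, Cd86 and Srebf1 (adjusted p 0.0662 to 0.172), and no filter that of Blk (0.0566). Depth at 6 days was lower with WM-1119 than with DMSO in every library, which limits low-count genes most.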

Other observations

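Over all genes tested 12.6% were called lower and 11.9% higher with WM-1119 at 3 days, 15.0% lower and 15.7% higher at 6 days, and 0.692% for the difference. At that last share, 0 calls of the difference in a list of 15 to 79 genes is near the share over all genes. Of 79 cytosolic ribosomal protein genes 25 were called lower with WM-1119 at 3 days and 47 at 6 days, with medians of -0.21 and -0.41, while the difference had a median of -0.17 and 0 calls. Among 52 MYC targets of ribosome biogenesis and growth 16 and 23 were called lower, with a median difference of -0.04 and 0 calls. Of 37 glycolysis and hypoxia-inducible genes 25 and 26 were called lower and 2 and 3 higher, with medians of -0.39 and -0.40, and a median difference of 0.00.

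Of 40 interferon-stimulated genes and sensors 16 were called higher at 3 days and 23 at 6 days (3 and 2 lower), and of 26 MHC presentation genes 8 and 14 (0 and 1 lower). Their median differences were 0.13 and 0.09, with 0 calls in each. Of 7 guanylate-binding protein genes 5 were called higher at each time and 1 lower at 6 days, with a median difference of 0.55. Lysosome genes (41), NF-kB subunits, inhibitors and targets (23) and Hox and TALE genes (15) had 0 calls of the difference.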
